A study of Danio rerio with 5 samples.

Results

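Germ plasm is the maternally made material that marks the future germ cells of the zebrafish (Danio rerio). It holds proteins and mRNAs that are packed during oogenesis, gathered at the cleavage furrows and inherited by a few cells, which then become the primordial germ cells. The scaffold protein Bucky ball organises it, and RNA-binding proteins such as Nanos3, Dnd1 and Dazl act on germ cell transcripts, which outside the germ cells are silenced or cleared along with other maternal mRNA. The 9 genes described here were taken by symbol. They are buc, the RNA regulators nanos3, ddx4, dnd1 and dazl, and ca15b, grip2a, rgs14a and celf1, whose mRNAs are known from germ plasm or primordial germ cells. Each symbol matched 1 gene among the 32520 in the deposited tables, and all 9 were among the 16445 genes that passed the filter on low counts.

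The RNA came from whole embryos at 4 hours after fertilisation, in 5 libraries. The 3 control libraries are labelled as controls for RfxCas13d, a nuclease that cuts RNA matched by a guide, and the labels do not say whether a guide was given. The other libraries are labelled as RfxCas13d knockdowns, 1 with 10 guides (1 named for szrd1, and 9 more) and 1 with 25 guides (1 named for szrd1, and 24 more). They are called the pool of 10 and the pool of 25. The design text asks how many guides can be given together when efficient ones are sought. Which genes the remaining guides target is not stated in the labels, so whether any of the 9 genes was a target is not known. Control replicates 1 and 2 were made at 1/4 of the library kit's reaction volume, and control replicate 3 and both pools at 1/8. The labels do not state whether the replicates stem from different clutches. The p-values therefore reflect the scatter of these samples alone, part or all of which may be technical.

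Gene counts totalled between 5283761 and 14179837 per library, and unmapped reads made up 44% of control replicate 3 against 13.1% to 21% of the others. The named target szrd1 stood at 15.3% of the control mean in the pool of 10 and at 16.9% in the pool of 25. In RNA from whole embryos, fewer germ cells, less RNA per germ cell and less RNA left in other cells cannot be told apart. Among 9 markers of later germ cells and gonad, the meiotic recombinase gene dmc1, nanos2 and the ovarian factor gene foxl2a had no count in any library. The summed level of these 9 markers was 26.5 to 48.6 CPM. CPM are normalised read counts, that is counts scaled to a common library total by the trimmed mean of M values. No sequence of these genes is shown, since the files used here hold none.

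Per transcript length, ca15b and buc had the highest control means among the 9 genes. Levels between genes are given in the authors' deposited TPM, which are scaled for length. The control mean was 576 ± 192 TPM for ca15b and 372 ± 212 TPM for buc (SD, n = 3). They were followed by nanos3 (121 ± 59.8 TPM), dazl (116 ± 39.1 TPM), ddx4 (66.9 ± 37.9 TPM), celf1 (66.2 ± 45.5 TPM), rgs14a (52.3 ± 44.6 TPM), dnd1 (40.4 ± 5.18 TPM) and grip2a (23.7 ± 15.7 TPM). All 9 transcripts lay between the 76.2th and the 99.7th percentile of all genes in every library.

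Most neighbours in that order could not be separated. The difference in log2(TPM + 1) between neighbours within a control exceeded its SD over the 3 controls only for celf1 over rgs14a (0.44, SD 0.24), which held in 3 of 3 controls, and for dnd1 over grip2a (0.95, SD 0.79), also in 3 of 3. For ca15b over buc it was 0.74 with an SD of 1.12, and the order held in 2 controls. In control replicate 3 and in both pools buc came before ca15b. In control replicate 2 nanos3 (182.5 TPM) was level with buc (181.3 TPM).

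In RNA from whole embryos, the shares of the genes described here in their summed level varied between libraries. The summed level was 1586, 1144 and 1571 TPM in control replicates 1 to 3, 2108 TPM in the pool of 10 and 1823 TPM in the pool of 25. Of this sum, buc made up 21.1% and 15.9% in control replicates 1 and 2, 38.2% in control replicate 3, and 43.7% and 44.7% in the pools of 10 and 25. The share of the carbonic anhydrase transcript ca15b went the other way, with 49.6% and 46.2% in control replicates 1 and 2. In the remaining libraries it was 26.2%, 26.3% and 22.4%, in the same order. Shares of a sum depend on each other, so they do not show how ca15b itself differed. Its level was 786.8, 528.3 and 411.5 TPM in the controls, and 553.2 and 407.5 TPM in the pools of 10 and 25. On this scale control replicate 3 stood nearer to the pools than to its fellow controls for both shares. On the count scale that held for ca15b but not for buc. Of the summed CPM, buc made up 30.9%, 24.1% and 36.2% in the controls and 46.3% and 48.4% in the pools, with control replicate 3 nearer to control replicate 1. The ratio of TPM to CPM for buc was 1.93 times as high in control replicate 3 as in control replicate 1, beside 1.60 for the median gene.

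**Figure D1:**
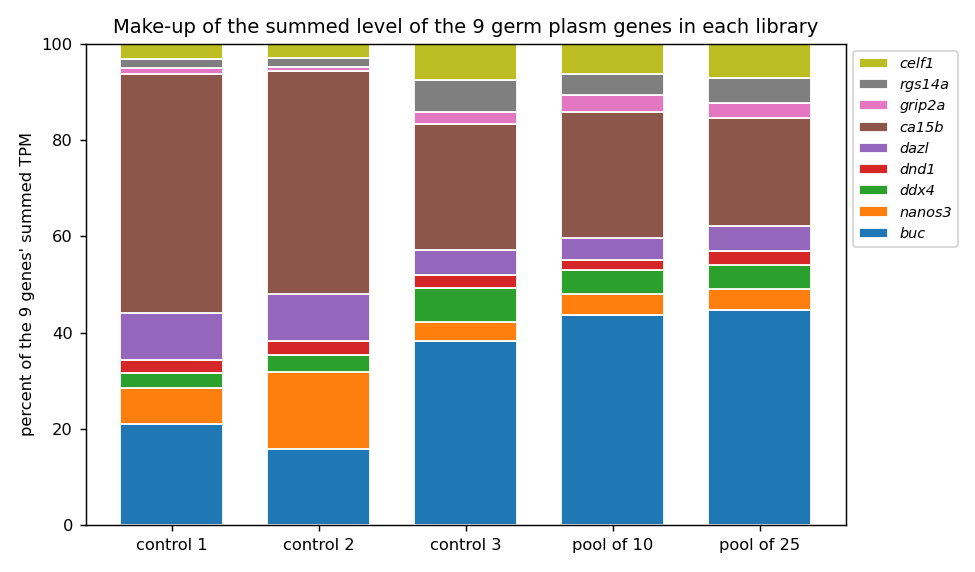
Share of each of the 9 genes in their summed TPM, as stacked bars in percent, for the 3 control libraries and the pools of 10 and 25 guides. The buc share was 15.9% and 21.1% in the controls made at 1/4 volume and 38.2% to 44.7% in the libraries made at 1/8 volume.

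Of the genes with a structural role, buc was high in both pools. buc (ENSDARG00000096095) encodes Bucky ball, which builds the Balbiani body of the oocyte and gathers the germ plasm in the embryo. The 3 controls held 646, 381 and 600 CPM of it, with 1039 CPM in the pool of 10 and 918 CPM in the pool of 25. Both pools lay above all 3 controls, as they did for 14.6% of all genes tested. Set against control replicate 3 alone, which shares the pools' reaction volume, buc was 1.73-fold higher in the pool of 10 (95% counting interval 1.66 to 1.80) and 1.53-fold higher in the pool of 25 (1.47 to 1.60). These exact Clopper-Pearson intervals cover counting error only, and not the spread between samples. The fitted log2 difference between both pools and the controls was 0.85 (SE 0.351, 95% interval 0.07 to 1.63).

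That difference did not pass the test over all genes (edgeR's quasi-likelihood test with Benjamini-Hochberg adjustment, adjusted p = 0.465, unadjusted p = 0.0354). buc2l (ENSDARG00000096628), a relative of buc by its symbol, was at 69.3, 47 and 108 CPM in the controls. In the pools of 10 and 25 it was at 140 and 105 CPM. The pool of 25 did not exceed control replicate 3. The deposited TPM of buc over buc2l in the controls was 334 over 26.4, 181 over 15.8 and 600 over 63.1.

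grip2a (ENSDARG00000087187) encodes a PDZ-domain scaffold of the Grip family and is known in zebrafish as a maternal, vegetally placed mRNA that is needed to form the dorsal axis. It was at 44.8, 26 and 78.4 CPM in the controls, 132 CPM in the pool of 10 and 94.9 CPM in the pool of 25. Here too every pool value lay above every control, as for 14.6% of all genes tested, and control replicate 3 was the highest control. Against control replicate 3 alone the pool of 10 gave a ratio of 1.69 (counting interval 1.51 to 1.89) and the pool of 25 one of 1.21 (1.07 to 1.36). With all controls the log2 fold change of both pools was 1.19 (SE 0.480, interval 0.13 to 2.26), the farthest from 0 among the 9 genes (edgeR, adjusted p = 0.465, unadjusted p = 0.0319). Its relatives grip1 and grip2b were scarce, at 0.77 to 7.47 TPM and 0 to 1.05 TPM over the 5 libraries, beside 9.90 to 72.7 TPM for grip2a.

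**Figure D2:**
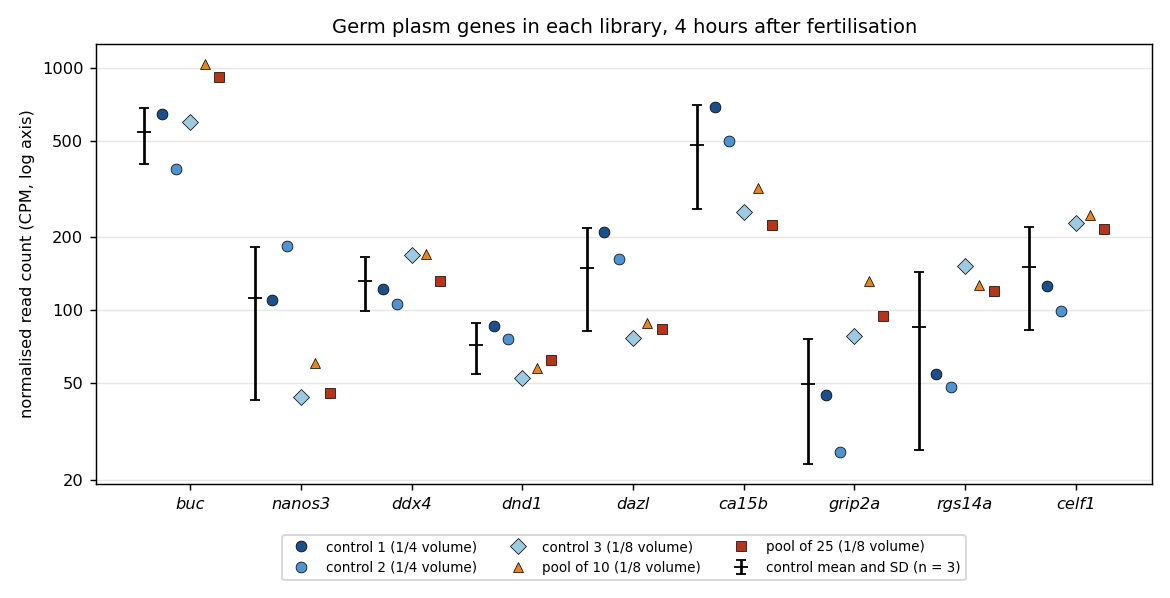
Normalised read count (CPM, log axis) of each gene in each library, with the control mean and SD (n = 3) at the left of each gene. For buc and grip2a both pool values lie above all 3 controls, as for 14.6% of all genes tested. For the other genes at least 1 pool value lies within the range of the controls.

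Of the 4 RNA regulators of the germ cells none passed the test, and each 95% interval included 0. nanos3 (ENSDARG00000068255) encodes a zinc-finger translational repressor needed to keep primordial germ cells. It was at 110, 184 and 43.8 CPM in the controls, 60.8 CPM in the pool of 10 and 45.6 CPM in the pool of 25. Both pools lay within the range of the controls, above control replicate 3, and control replicates 1 and 2 were above all other libraries. On the log2 scale the fitted difference of both pools was -1.08 (SE 0.561, interval -2.33 to 0.16). Against control replicate 3 alone the pool of 10 gave a ratio of 1.39 (counting interval 1.19 to 1.63) and the pool of 25 one of 1.04 (0.881 to 1.23), so the sign was not that found with all controls. In the same family nanos1 had 0 to 2.25 TPM and nanos2 no count in any library.

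dazl (ENSDARG00000036214) encodes an RNA-binding protein that promotes translation in germ cells. It was at 211 and 162 CPM in control replicates 1 and 2, and at 77, 88.2 and 83.8 CPM in control replicate 3 and the pools of 10 and 25. The 3 libraries made at 1/8 volume were thus close to each other and below the others. Its log2 fold change in both pools was -0.80 (SE 0.463, interval -1.83 to 0.23), and the ratio to control replicate 3 was 1.14 and 1.09 in the pools of 10 and 25.

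dnd1 (ENSDARG00000022813) encodes Dead end, an RNA-binding protein that shields germ cell mRNAs such as nanos3 from the microRNA miR-430. Its SD over the controls was 23.8% of the mean in CPM and 12.8% in TPM, the smallest of the 9 on both scales. The control values were 85.7, 76.2 and 52.6 CPM, 57.5 CPM in the pool of 10 and 62.1 CPM in the pool of 25. Both pools lay inside the control range. On the deposited TPM scale control replicate 3 was the highest control (42.2, 34.6 and 44.5 TPM), with 43.2 and 54.8 TPM in the pools. In both pools together it differed by -0.26 (log2, SE 0.389) on counts and by 0.27 on log2(TPM + 1), so its sign depended on the scale. The median of all genes tested also moved, from -0.08 on counts to 0.36 on TPM, and relative to it dnd1 was at -0.18 and -0.09.

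ddx4 (ENSDARG00000014373), the zebrafish vasa gene, encodes a DEAD-box RNA helicase of the germ granules. It was at 122, 106 and 169 CPM in the controls, 171 CPM in the pool of 10 and 132 CPM in the pool of 25. The pool of 10 was level with control replicate 3, at a ratio of 1.01 (counting interval 0.928 to 1.10), and the pool of 25 lay inside the control range at a ratio of 0.780 (0.713 to 0.854). Its fitted log2 difference in both pools was 0.20 (SE 0.378, interval -0.65 to 1.04).

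Within the regulators, the balance of transcripts differed from library to library. The TPM of ddx4 was 1.19 and 1.16 times that of dnd1 in control replicates 1 and 2, 2.48 times in control replicate 3, 2.48 times in the pool of 10 and 1.67 times in the pool of 25. The TPM of nanos3 was 2.76, 5.27 and 1.42 times that of dnd1 in control replicates 1 to 3. In the pools it was 2.09 and 1.42 times, both within the range of the controls.

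Among the genes taken because their mRNAs are known from germ plasm or primordial germ cells, ca15b (ENSDARG00000040510) encodes a carbonic anhydrase. It was at 692, 500 and 254 CPM in the controls, 320 CPM in the pool of 10 and 225 CPM in the pool of 25. The pool of 25 was below every control, as for 25.1% of all genes tested, and the pool of 10 was not. The pool of 25 stood at 0.886 of control replicate 3 (counting interval 0.825 to 0.951). The log2 fold change in both pools was -0.82 (SE 0.459, interval -1.84 to 0.20). Its relatives ca15a and ca15c had no count in any library.

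rgs14a (ENSDARG00000021521) encodes a regulator of G protein signalling. It was at 54.5, 48.2 and 152 CPM in the controls, 127 CPM in the pool of 10 and 120 CPM in the pool of 25. Control replicate 3 was the highest of all 5 libraries, 2.80-fold above control replicate 1 (counting interval 2.52 to 3.10) and 3.17-fold above control replicate 2 (2.85 to 3.52), and both pools lay between it and the other controls. The log2 fold change of both pools was 0.54 (SE 0.514, interval -0.61 to 1.68), while the ratio to control replicate 3 was 0.831 and 0.785. By symbol, its relatives rgs12a and rgs12b were at 2.05 to 8.00 TPM and 12.8 to 57.1 TPM, beside 22.9 to 104 TPM for rgs14a. In control replicate 2 rgs12b (57.1 TPM) was above rgs14a (22.9 TPM).

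celf1 (ENSDARG00000005315) encodes a Bruno-like RNA-binding protein of the CUG-binding family, which acts in mRNA decay and translation. It was at 126, 99.2 and 229 CPM in the controls, 247 CPM in the pool of 10 and 215 CPM in the pool of 25. Control replicate 3 lay between the pools, and their ratios to it were 1.08 (counting interval 1.01 to 1.16) and 0.942 (0.875 to 1.01). The log2 fold change in both pools was 0.61 (SE 0.423, interval -0.33 to 1.55). In the same family celf2 was at 2.60 to 7.48 TPM over the 5 libraries, celf3a at 0.81 to 2.89 TPM and celf5a at 0 to 2.70 TPM, against 32.4 to 131 TPM for celf1.

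None of the 9 genes passed edgeR's test in any comparison, and none of the 16445 genes tested did, or 0%. Adjusted p-values of the 9 genes lay between 0.951 and 0.955 with the pool of 10, between 0.913 and 1 with the pool of 25, and between 0.465 and 0.838 with both. In the pool of 10 the fitted log2 fold changes ran from -0.89 for nanos3 (SE 0.818) to 1.41 for grip2a (SE 0.668). The pool of 25 gave values from -1.31 for nanos3 (SE 0.841) to 0.93 for grip2a (SE 0.681). At an unadjusted p under 0.05, 0 of the 9 passed in either pool alone, where 1.42% of all genes tested were higher and 1.80% lower in the pool of 10, and 1.22% and 1.84% in the pool of 25. With both pools together buc and grip2a were higher at that level, where 3.97% of all genes were higher and 6.66% lower. DESeq2 and limma voom called 0 of the 9 in any of these comparisons. For either pool DESeq2 called 0.0547% of all genes, and for both 0.729% of the 14532 genes to which it gave an adjusted p-value. limma voom called 0% of all genes in each. Without the filter on low counts edgeR called 0 of the 9. Of all 23945 genes then tested, it called 0.0793% for the pool of 10, 0.0418% for the pool of 25 and 0.572% for both.

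By range alone, the pool of 10 lay above every control for buc, ddx4, grip2a and celf1, or 4 of 9, where 23.6% of all genes tested did so, and below every control for 0 of 9, against 23.7%. The pool of 25 lay above every control for 2 of 9, against 24.3%, and below for 1 of 9, against 25.1%. Both pools lay above for buc and grip2a, where 14.6% of all genes did, so that these counts are near the background. Both pools lay below for 0 of 9, against 14.9%. At a distance of at least 2-fold from the controls there were 0 of 9 in either direction in each pool, against 3.56% of all genes higher and 6.27% lower for the pool of 10. These shares were 3.36% and 5.62% for the pool of 25, and 1.57% and 2.21% for both. The median log2 fold change of the 9 genes was 0.37 for the pool of 10, 0.00 for the pool of 25 and 0.20 for both, beside -0.11, -0.12 and -0.08 over all genes tested.

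As for most genes tested, the levels of 8 of the 9 genes set control replicate 3 outside the range of control replicates 1 and 2. It was above both for ddx4, grip2a, rgs14a and celf1, where 39.2% of all genes tested were, and below both for nanos3, dnd1, dazl and ca15b, where 42.5% were. At 2-fold it was above for rgs14a, against 14.5%, and below for nanos3 and dazl, against 19.3%. Control replicate 1 was above its fellow controls for 4 of 9 genes, against 30.5%, and below for 0, against 27.1%. Control replicate 2 was above for 1, nanos3, against 30.2%, and below for 5, against 29.1%. At 2-fold neither had any of the 9, with 4.21% and 6.89% of all genes higher and lower in control replicate 1 and 7.07% and 4.01% in control replicate 2. For the 8 genes that set control replicate 3 apart, both pools lay on the same side of control replicates 1 and 2 as control replicate 3. For all genes tested, the 3 libraries made at 1/8 volume lay together above in 25.1% and below in 27.7%, and by 2-fold in 6.06% and 7.65%, among them rgs14a above. For buc, by contrast, control replicate 3 was inside the range and both pools were above it.

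**Figure D3:**
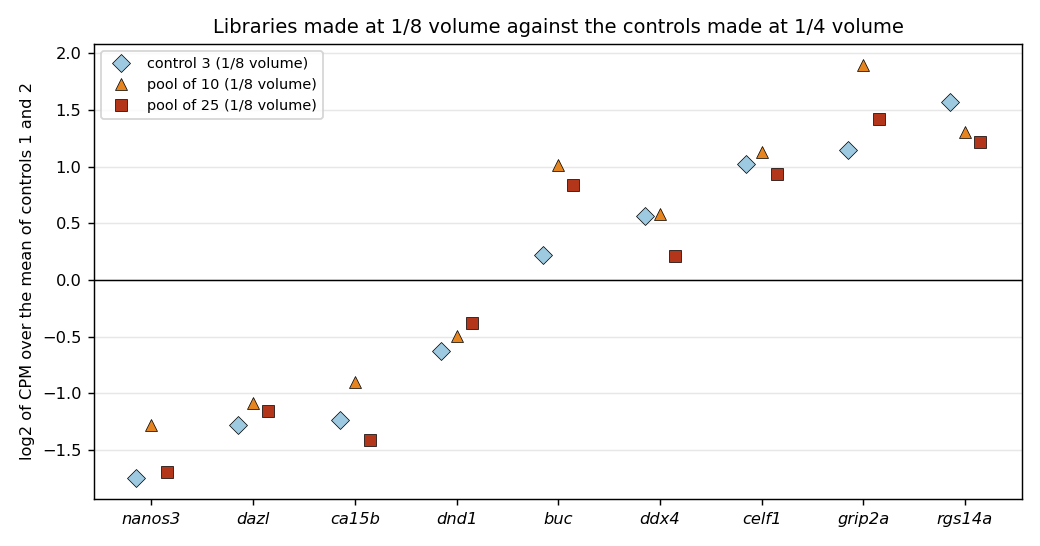
Log2 ratio of CPM to the mean of control replicates 1 and 2, for control replicate 3, the pool of 10 and the pool of 25, with genes ordered by control replicate 3. For buc the value is 0.22 in control replicate 3, which lies inside the range of control replicates 1 and 2, and 1.02 and 0.84 in the pools. For grip2a the values are 1.15, 1.90 and 1.42 in the same order.

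The calls differed with the controls used. Without control replicate 3, the controls left were both of the other reaction volume, and 7 of the 9 genes passed in both pools together (edgeR), where 24.7% of all 17025 genes then tested passed. In each pool alone 0 of 9 and 0% of all genes passed. grip2a (log2 fold change 1.67, adjusted p = 0.00546), rgs14a (1.25, adjusted p = 0.00498), celf1 (1.03, adjusted p = 0.0111) and buc (0.92, adjusted p = 0.0285) were called higher. nanos3 (-1.48, adjusted p = 0.0077), dazl (-1.12, adjusted p = 0.008) and ca15b (-1.14, adjusted p = 0.011) were called lower. Without control replicates 1 and 2 in turn, 0 of the 9 passed. For both pools together 0% of all genes then passed, for the pool of 10 alone 0.0435% and 0.00626%, and for the pool of 25 alone 0.0311% and 0.00626%.

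With a term for the reaction volume, which in effect sets the pools against control replicate 3 alone, 0 of the 9 passed, where 0.0608% of all genes did in both pools together and 0% in each. buc had a log2 fold change of 0.71 (SE 0.333, adjusted p = 0.573, unadjusted p = 0.0605) and grip2a one of 0.53 (SE 0.388, adjusted p = 0.706). The sign was opposite to that with all controls for nanos3 (0.28), ddx4 (-0.16), dnd1 (0.19), dazl (0.16), ca15b (0.10) and rgs14a (-0.31), and celf1 was at 0.02. Since control replicate 3 is the only control at 1/8 volume, that volume and this single library cannot be told apart.

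**Figure D4:**
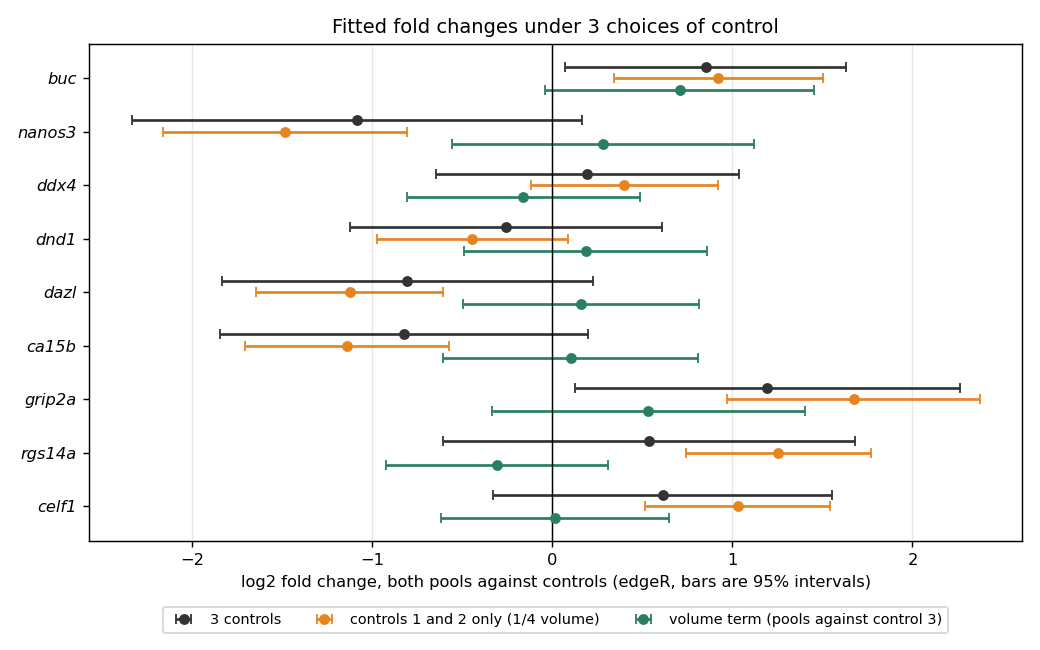
Fitted log2 fold change of both pools against controls (edgeR), with 95% intervals computed from each fold change and its F statistic. The fits used all 3 controls (black), control replicates 1 and 2 only (orange) or a term for library volume (green). Intervals of buc, nanos3, dazl, ca15b, grip2a, rgs14a and celf1 leave out 0 with control replicates 1 and 2 only, and none of the 9 leaves it out with the volume term.

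Between the pools themselves the 9 genes were not separable. The log2 difference of the pool of 25 from the pool of 10 ran from -0.51 for ca15b (95% interval -2.30 to 1.28) to 0.11 for dnd1 (-1.58 to 1.81). It was below 0 for 8 of 9 genes, where 8094 of the 16445 genes tested were. The median was -0.20, beside 0.00 over all genes tested. edgeR called 0 of the 9 and 0% of all genes (0.456% higher and 0.334% lower at an unadjusted p under 0.05), and DESeq2 and limma voom also called 0%. The intervals are wide, and for buc a ratio of the pool of 25 to the pool of 10 from 0.303 to 2.57 is within them.

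Further lists of germ line genes, 3 in all, were set beside the 9. Of 10 Tudor and Piwi genes of the germ granule, 9 symbols were found and tested. Their median log2 fold change in both pools was 0.85, with 8 of 9 above 0, where 7661 of the 16445 genes tested were. Of these 9, 0 passed edgeR's test. tdrd6, whose Tudor protein binds Bucky ball, was at 16.7, 10.6 and 21.1 CPM in the controls and at 77.5 and 93.3 CPM in the pools of 10 and 25 (log2 fold change 2.41, SE 0.424, edgeR adjusted p = 0.367). In both pools together tdrd6 was called higher by DESeq2 (adjusted p = 0.000286) and by edgeR without the filter on low counts (adjusted p = 0.00127), besides the fit without control replicate 3. With the volume term it had a log2 fold change of 2.02 and an adjusted p of 0.18. piwil1, a Piwi protein gene of the germ line, was at 39.1, 29.6 and 30.8 CPM and at 63.1 and 74.7 CPM (1.05, SE 0.376, adjusted p = 0.464). For both genes the pools lay above every control, control replicate 3 included. Both pools lay above every control for 4 of the 9 genes of this list, against 14.6% of all genes. Between the pools the smallest p belonged to tdrkh (0.62 in the pool of 25 against the pool of 10) and tdrd5 (-0.42), both with an adjusted p of 1 by edgeR.

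Genes of germ plasm assembly and transport gave a median of 0.42 in both pools, with 0 passing edgeR's test. Of 10 gene entries for 8 symbols, 9 were above 0, where 7661 of the 16445 genes tested were. hook2 (ENSDARG00000099235), an adaptor of microtubule motors, was at 15, 11.2 and 36.7 CPM in the controls and at 42.8 and 33.4 CPM in the pools, with control replicate 3 between them. The kinesin heavy chain gene kif5ba (ENSDARG00000074131) was at 67.7, 66.2 and 147 CPM and at 145 and 139 CPM, just below control replicate 3. In the pool of 25 against the pool of 10, the lowest p in this list belonged to rbpms2b, which encodes a Bucky ball partner, and to sybu, the syntabulin gene (-0.68 and -0.76, adjusted p = 1 for both).

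Of 6 other germ cell mRNAs 5 were found, and 0 passed edgeR's test. Their median in both pools was -0.78, with 4 of 5 below 0, where 53.4% of all genes tested were below 0. h1m, a maternal linker histone gene, was at 2043, 1751 and 678 CPM in the controls and at 702 and 645 CPM in the pools (-1.15, SE 0.464, adjusted p = 0.465). cxcr4b, a chemokine receptor gene that guides germ cells, was at 340, 316 and 190 CPM and at 129 and 181 CPM (-0.86, SE 0.404, adjusted p = 0.465). gra was at 171, 270 and 129 CPM and at 143 and 78.8 CPM. Control replicate 3 lay between the pools for h1m. Between the pools gra and cxcr4b had the smallest p (-0.85 and 0.49, edgeR adjusted p = 1 for both).

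Without control replicate 3, both pools together gave 7 calls higher among the 9 Tudor and Piwi genes and 3 higher among the 10 assembly entries. The 5 other germ cell mRNAs then gave 3 calls lower. Of all genes then tested 24.7% were called in either direction, and their share by direction was not taken. With the volume term no gene of the 3 lists passed, and their medians were 0.49, 0.19 and -0.01.

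Markers of other parts of the embryo and of its stage also varied between libraries. The 8 listed maternal mRNAs that are cleared after genome activation summed to 9376, 6573 and 4239 CPM in control replicates 1 to 3. In the pools they summed to 4253 and 4059 CPM. In both pools together 8 of 8 were below 0 (median -0.68), where 53.4% of all genes tested were. In this sum control replicate 3 and the pools were below control replicates 1 and 2, though not for each mRNA, since zp3b was lowest in control replicate 2 (46.7 CPM). Of the 9 genes, nanos3, dnd1, dazl and ca15b had that order, where 27.7% of all genes tested did. The opposite order was that of ddx4, grip2a, rgs14a and celf1, where 25.1% of all genes had it. The part of maternal clearance in the values of the 9 genes was not tested. The 10 zygotic genes summed to 507, 949 and 572 CPM in the controls and to 546 and 474 CPM in the pools. Both pools lay below every control for 4 of the 10, against 14.9% of all genes tested, and above for 0. Their median log2 fold change in both pools together was -0.675, and edgeR's test called 0 of them. The 6 enveloping layer markers summed to 712, 2536 and 1726 CPM in the controls and to 1446 and 1375 CPM in the pools, and 6 gene entries of 5 yolk syncytial layer markers to 24.8, 121 and 61.3 CPM and to 44.6 and 34.8 CPM. The pools were within the range of the controls for each of these last 2 sums, and no marker of either layer was at 0 in all libraries.

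Likeness of pattern was measured over the 5 libraries, as the root mean square difference between 2 genes of their log2(CPM + 1) deviations from their own means. Among the members dazl and ca15b were closest to each other (0.14), followed by rgs14a and celf1 (0.21). grip2a and nanos3 were farthest apart (1.56). Among 9608 other genes with a mean of at least 10 CPM, cyb5r4 (0.03), raf1a (0.09) and zpax2 (0.10) came nearest to buc, and med10 (0.08), si:dkey-31g6.4 (0.08) and gpr160 (0.09) to nanos3. With 5 libraries these are descriptions, and no shared function is read from them.

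Counts of 4 of the 9 genes carry a further uncertainty. In the RefSeq annotation of another assembly (GRCz12tu) each of the 9 symbols matched 1 protein-coding gene. An overlapping gene was listed for ddx4 and dnd1 (an unnamed locus each), dazl (pals2b) and celf1 (nudt19). Whether counting used strand is not stated in the labels, so reads of overlapping genes may not be separable.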

How the data were processed

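RNA of whole zebrafish embryos was sequenced in 3 control libraries, 1 pool of 10 guides and 1 pool of 25 guides. The authors deposited whole-number gene counts per library, and a second table that was read as TPM, since each column sums to 1000000 within rounding. The submitters' processing notes name bcl2fastq 2.20 and the build danRer11. No source used here names the aligner or counter. Entries naming no gene (26.7% to 53.8% of the counts) were left out.

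Counts were scaled by TMM, filtered (minimum count 10) and tested with edgeR 4.0.16 (R 4.3.3) in quasi-likelihood fits over all genes, adjusted by Benjamini-Hochberg (calls at 0.05). A 3-group fit left 2 residual degrees of freedom and a 2-group fit of both pools 3. In the 3-group fit each single pool was assumed to vary like the controls. The 2-group fit took both pools as replicates of a single condition, although they differ in their number of guides. The standard errors, intervals and p-values given for both pools together rest on that assumption, which was not tested. Alternatives used DESeq2 1.42.0, limma 3.58.1 (voom, or log2 of TPM + 1 or + 0.1), other scalings and filters, a volume term (1 and 2 residual degrees of freedom) and leaving out each control. All 9 genes are named, and from each germ line list the genes past the threshold or else the 2 with the smallest p per comparison, with some of them given only by values. The members and lists were chosen with earlier results of these data known. Relatives by symbol were chosen after the members' values were seen.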

Additional observations from a re-analysis of the deposited data

How the results depend on the processing

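No paired analysis was possible because the pools have 1 library each and share fewer than 2 replicate numbers with the controls. The number of the 9 genes called in both pools together was 0 to 7 when 1 control was left out, 7 being without control replicate 3, where buc, nanos3, dazl, ca15b, grip2a, rgs14a and celf1 passed. Leaving out 1 control moved the median log2 fold change of the 9 genes to 0.23 to 0.56 in the pool of 10, -0.14 to 0.21 in the pool of 25 (ddx4 also -0.14 to 0.21) and 0.053 to 0.40 in both. Over all genes then tested the median lay between -0.109 and -0.046. Counts of the 9 genes above every control ran from 2 to 5, both for the pool of 25 and for both pools. Counts below ran from 0 to 4 for the pool of 10 and for both, and from 1 to 4 for the pool of 25. On deposited TPM 4 were above in the pool of 25, and the share of all genes was not taken on that scale. The median of all genes tested was higher there, at 0.41 on log2(TPM + 1) against -0.12 on counts. With fewer controls more genes fall outside their range. Against control replicates 1 and 2, both pools lay above for at least 25.1% of the 16445 genes tested and below for at least 27.7%. The matching shares of all genes with control replicate 1 or 2 left out, or for a pool alone, were not taken. Nothing about the 9 genes is read from these counts above or below every control.

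On log2(TPM + 1) and log2(TPM + 0.1) the median was 0.81 and 0.82 for the pool of 10, 0.58 and 0.59 for the pool of 25 (also the values of ddx4), and 0.70 and 0.71 for both. Over all genes tested the medians were also higher on these scales. They were 0.332 and 0.428 for the pool of 10, 0.407 and 0.524 for the pool of 25, and 0.355 and 0.45 for both. dnd1 was then at 0.10 with either pseudocount for the pool of 10, 0.44 for the pool of 25 and 0.27 for both, and in the pool of 25 against the pool of 10 dazl was at 0.003 and rgs14a at 0.032 with either pseudocount. Scaling by library size only gave medians of 0.21 (ddx4 0.21, dnd1 0.072) in the pool of 25 and 0.38 in both, beside 0.122 and 0.139 over all genes tested. In the pool of 25 limma voom gave 0.039 (ddx4 0.039), beside -0.004 over all genes tested.

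With the volume term the median was 0.20 for the pool of 10 and 0.058 for that of 25, beside 0.0 over all genes tested for each. In the pool of 10 nanos3 was then at 0.47, dnd1 at 0.13, dazl at 0.20, ca15b at 0.34 and rgs14a at -0.27. In the pool of 25 nanos3 was at 0.058, dnd1 at 0.24, dazl at 0.12, rgs14a at -0.35 and celf1 at -0.086. In both together nanos3 was at 0.28, ddx4 at -0.16, dnd1 at 0.19, dazl at 0.16, ca15b at 0.10 and rgs14a at -0.31. The cause was not tested. Over all genes edgeR made 0 calls in both pools together, but 137 without the filter on low counts, 10 with the volume term and 4210 without control replicate 3, and DESeq2 made 106. Of the other values, 420 for single genes and 105 summaries kept their direction and side of the threshold. Depth, lowest in control replicate 3, limits the counting intervals of its genes.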
